A study of Mus musculus and Mus musculus
Rattus norvegicus with 30 samples.

Results

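The genes described here mark a 2-cell-like state of mouse embryonic stem cells (mESCs). They were chosen by symbol, as the rows of the deposited RNA-seq count tables named Zscan4a, Zscan4c, Zscan4d, Zscan4f, Tcstv1, Tcstv3, Zfp352, Usp17lc and Usp17le. Of these 9 symbols, 8 were found among the 19919 genes that both mESC tables share and among the 34923 genes of the table for hybrid cells. Zscan4a had no row: GENCODE classes it as an unprocessed pseudogene, and the authors counted reads on an annotation from which pseudogenes had been removed.

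The mouse embryo starts to transcribe its own genome in a broad way at the 2-cell stage, and a small share of the cells in an ESC culture passes through a transient state in which genes of that stage are transcribed again. Zscan4 proteins are zinc finger proteins of that stage, known for their part in telomere maintenance and genome stability of ESCs. Dux, a double homeodomain factor, is the best known activator of the state, and H3K9 methylation, CAF-1 and the repressor Trim28 hold it back.

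The study induced mouse or rat Cdx2, a homeobox factor of the trophoblast and the intestine, to ask whether 3 amino acid changes in the mouse DNA binding domain alter what Cdx2 does. In mESCs, 20 RNA-seq libraries were made, with 2 replicates of WT, of mouse Cdx2 (mCdx2-OE), of rat Cdx2 (rCdx2-OE) and of each of 7 mutants of rat Cdx2. The mutants carry 1 change (rCdx2_R1-OE, rCdx2_R2-OE and rCdx2_R3-OE), 2 changes (rCdx2_R12-OE, rCdx2_R13-OE and rCdx2_R23-OE) or all 3 (rCdx2_R123-OE), each change bringing the rat protein to the mouse form at that position. RMES cells, hybrid ESCs with 1 set of mouse and 1 set of rat chromosomes, gave 4 libraries: 2 of WT, 1 of mCdx2-OE and 1 of rCdx2-OE, and the reads assigned to their mouse allele are used here. All induced cells carried a Flag-tagged transgene from a lentivirus, transcribed under doxycycline (DOX), and each construct had its own transduced line, so that construct and line cannot be told apart. The labels call the controls WT and do not say whether they carried a transgene or received DOX. The labels number the replicates of a condition without saying whether they came from separate cultures, and p values measure the spread between these libraries.

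Libraries of WT mESCs held 74960057 and 94686029 counts, those of induced mESCs 12698443 to 24315929, and those of the mouse allele in RMES cells 36166038 to 41418817. Levels are given as CPM, the counts scaled to a common library size by TMM. Cdx2 itself was at 1.21 and 1.36 CPM in WT. It was at 67 to 127 CPM (median 84.15) in the 4 libraries of mCdx2-OE and rCdx2-OE. In the 14 libraries of the mutants it was at 37.2 to 147 CPM. Their median of 63.7 CPM lay below the lowest library of unmutated Cdx2. The authors aligned mESC reads to the mouse genome, so levels from rat and mouse sequence may not compare. A match of transgene levels is therefore not shown. The 6 ESC markers had summed levels of 3690 to 3720 CPM in WT, 2640 to 2980 CPM in the 4 libraries of unmutated Cdx2 and 3280 to 4260 CPM in the mutants. The 9 trophoblast markers summed to 160 to 162 CPM in WT, 687 to 838 CPM with unmutated Cdx2 and 196 to 425 CPM with the mutants. These sums include Cdx2, the induced gene itself, at the levels given above, so part of their rise is the transgene. The 7 feeder fibroblast markers summed to 34.4 to 34.6 CPM in WT, 3.71 to 4.42 CPM with unmutated Cdx2 and 1.28 to 3.87 CPM with the mutants. Both lists moved with the comparisons below, and their part in the results was not tested. In bulk RNA, more cells in a state and more RNA per cell cannot be told apart.

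The 3 Zscan4 genes lie on chromosome 7 of GRCm38, Zscan4c at 11005745 to 11010547, Zscan4d at 11161374 to 11166159 on the minus strand and Zscan4f at 11397915 to 11402318. Their promoters are shown because they are nearly the same sequence and hold a site that resembles the motif of Dux. The 250 bases before each start, from RefSeq on GRCm38.p6, are given 5′ to 3′ on the strand of the gene, with the match to the relaxed Dux motif in capitals (chr7:11005495-11005744 on the plus strand, chr7:11166149-11166398 on the minus strand and chr7:11397665-11397914 on the plus strand).
Zscan4c: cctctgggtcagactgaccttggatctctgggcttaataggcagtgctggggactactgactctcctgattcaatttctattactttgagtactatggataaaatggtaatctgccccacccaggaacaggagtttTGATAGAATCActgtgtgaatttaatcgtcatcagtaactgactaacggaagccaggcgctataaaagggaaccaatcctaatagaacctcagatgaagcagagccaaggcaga
Zscan4d: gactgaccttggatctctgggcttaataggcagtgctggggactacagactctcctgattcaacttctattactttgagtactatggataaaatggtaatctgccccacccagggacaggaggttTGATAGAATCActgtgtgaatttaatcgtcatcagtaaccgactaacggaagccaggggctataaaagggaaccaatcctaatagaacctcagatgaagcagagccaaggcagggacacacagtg
Zscan4f: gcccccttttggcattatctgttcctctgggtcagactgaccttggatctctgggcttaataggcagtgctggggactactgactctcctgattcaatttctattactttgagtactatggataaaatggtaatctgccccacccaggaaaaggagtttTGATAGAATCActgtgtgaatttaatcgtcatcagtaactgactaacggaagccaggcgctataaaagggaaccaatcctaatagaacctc
Aligned over the whole window of 300 bases, 250 before and 50 after the start, the promoters of Zscan4c and Zscan4f were identical at 99.3% of 277 aligned bases, those of Zscan4c and Zscan4d at 97.2% of 289, and those of Zscan4d and Zscan4f at 97.4% of 266.

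Promoters of 5 members were found in the RefSeq table, those of Zscan4c, Zscan4d, Zscan4f, Zfp352 and Usp17lc. The motif of Dux, a palindrome of 11 bases with its centre free, matched none of the 5 on either strand and 11 of all 32851 promoters (0.0335%). A relaxed form that also frees the base beside the centre was searched because the first form had no match. It matched 68 promoters in all (0.207%), among them the 3 Zscan4 promoters. In these 3 the match was TGATAGAATCA, whose first base lies at -114 in Zscan4c, -125 in Zscan4d and -91 in Zscan4f when the transcript's first base is 0. A short motif of the Cdx2 type, TTTATNG, matched the same 3 promoters as CTATAAA on the other strand and 10.9% of all promoters, and in the Zscan4 promoters this match overlaps the TATAAA box. These matches describe the sequence only.

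Shared sequence limits how far the counts separate the family members, since a read that fits more than 1 gene is not counted for either by the counting program's default. Of all stretches of 100 bases in the transcripts of Zscan4f, 80.6% occurred in a transcript of another gene, and the shares were 72.8% for Zscan4c and 29.6% for Zscan4d. The Usp17l genes, which encode deubiquitinases, shared 32.3% (Usp17lc, chromosome 7 at 103415072 to 103419880) and 8.2% (Usp17le, chromosome 7 at 104768049 to 104777470, minus strand). Tcstv1 (chromosome 13 at 119893388 to 119894785, minus strand) and Tcstv3 (chromosome 13 at 120316878 to 120318178) shared 3.6% and 7.8%, and the zinc finger gene Zfp352 (chromosome 4 at 90218820 to 90225702) shared 0.6%. Levels of single Zscan4 genes are therefore uncertain to the degree that such reads were lost, and the family sum is given beside them. The sum adds only the counted reads of Zscan4c, Zscan4d and Zscan4f, so it lacks the shared reads as well.

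Levels of every member were higher with both unmutated forms of Cdx2 than in WT. Against WT, all 8 members rose in mCdx2-OE and all 8 in rCdx2-OE, where 18.4% and 19% of the 16000 tested genes rose (edgeR's quasi-likelihood test, adjusted p under 0.05 and more than a 2-fold change). Zfp352 and Tcstv3 passed the filter on low counts only through the libraries of unmutated Cdx2, so that they had to differ to be tested, while the other 6 members passed it on WT and mutant libraries alone. The sum of all 8 members was at 11.3 and 14.3 CPM in WT, at 62.9 and 84.8 CPM in mCdx2-OE and at 62 and 80.5 CPM in rCdx2-OE.

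**Figure D1:**
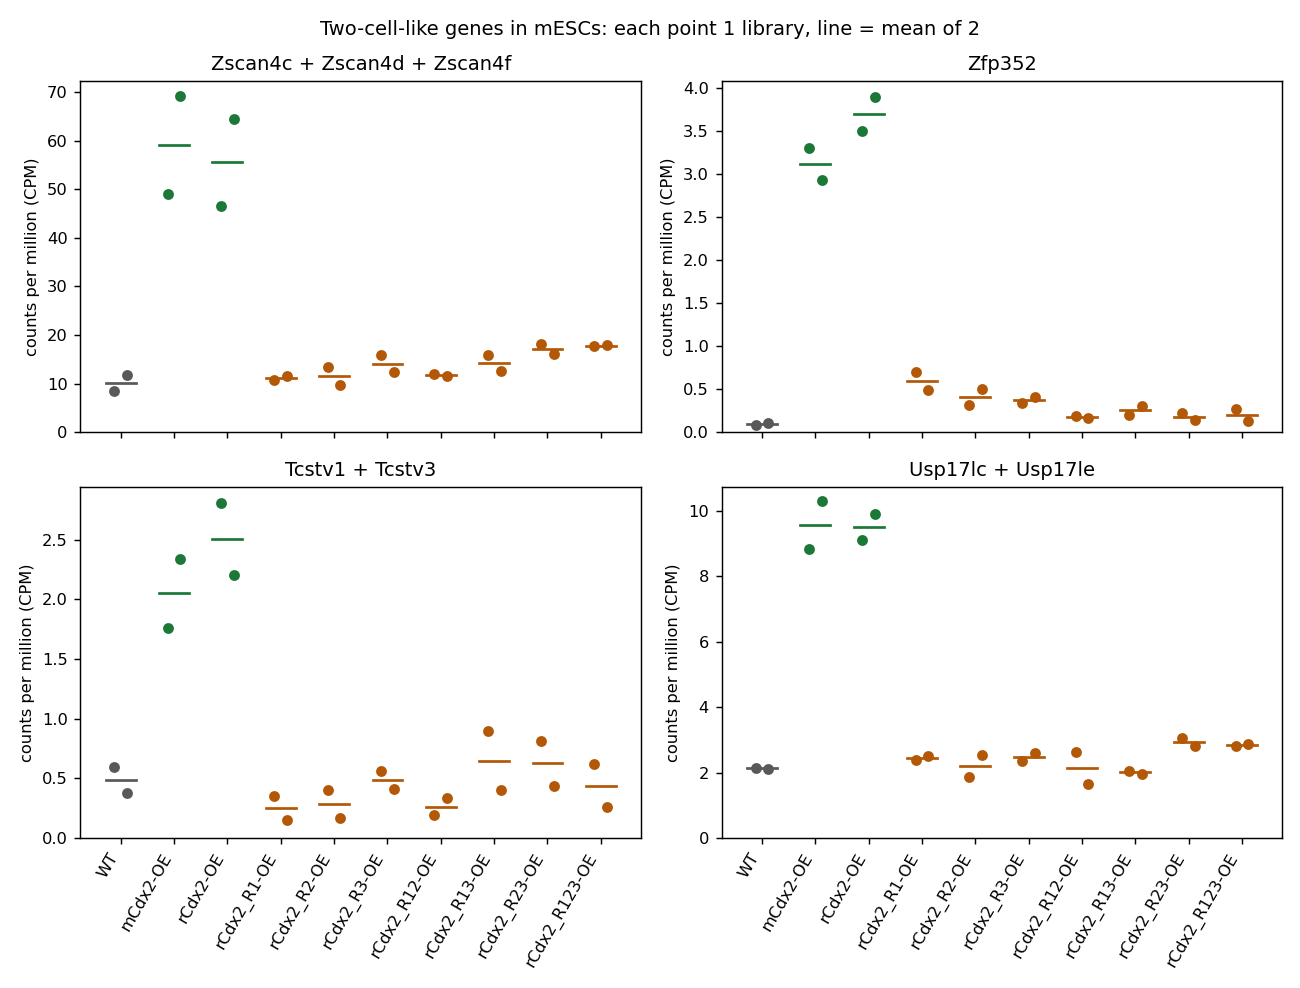
Levels in CPM (y axis, from 0) of the Zscan4, Tcstv and Usp17l sums and of Zfp352 in the 20 mESC libraries, by construct (x axis); each point is 1 library, each line the mean of 2, with WT in grey, unmutated Cdx2 in green and mutants in orange. In each panel the 4 green points lie above all others, for the Zscan4 sum at 46.6 to 69.2 CPM against at most 18.2 CPM in the mutants. The same order held for 14.4% of all tested genes.

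Among the zinc finger genes, Zscan4c was at 2.91 and 4.8 CPM in WT, at 19.2 and 25.4 CPM in mCdx2-OE and at 18 and 24.3 CPM in rCdx2-OE. In the 14 mutant libraries its lowest level was 3.61, its median 5.22 and its highest 7.43 CPM. The libraries of unmutated Cdx2 did not overlap those of WT or of the mutants, while WT and the mutants overlapped. Of all 16000 tested genes, 14.4% had the libraries of unmutated Cdx2 above both other groups.

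Zscan4d was at 3.95 and 4.05 CPM in WT, at 20.5 and 25.4 CPM in mCdx2-OE, at 18.1 and 20.9 CPM in rCdx2-OE, and at 3.61 to 5.61 CPM (median 4.54) in the mutants. Zscan4f was at 1.62 and 2.86 CPM in WT, at 9.24 and 18.4 CPM in mCdx2-OE, at 10.5 and 19.4 CPM in rCdx2-OE, and at 2.55 to 6.05 CPM (median 3.81) in the mutants. For both genes the libraries of unmutated Cdx2 again lay above all others, as for 14.4% of all tested genes. Of the 3 Zscan4 genes Zscan4f differed most between replicates of 1 construct. With mCdx2-OE and rCdx2-OE pooled against WT, a comparison added after the values were seen, the log2 fold changes were 2.47 ± 0.20 (SE) for Zscan4c, 2.39 ± 0.12 for Zscan4d, 2.64 ± 0.32 for Zscan4f and 2.50 ± 0.19 for their sum (adjusted p = 4.6e-09 for the sum). Per kilobase of counted length, the mean levels in these 4 libraries were 9.53 CPM for Zscan4c, 9.35 for Zscan4d and 7.34 for Zscan4f. The SD of Zscan4f in these libraries was 5.24 around a mean of 14.4 CPM, and its place below the other Zscan4 genes was not tested. The other members were at 2.82 CPM per kilobase for Usp17le, 1.6 for Usp17lc, 1.5 for Zfp352, 1.11 for Tcstv3 and 1.01 for Tcstv1. Reads that fit several genes were not counted, so levels per kilobase and their order also depend on how much sequence each gene shares.

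Zfp352, a zinc finger gene of the early embryo, had the largest change of the 8. It was at 0.085 and 0.103 CPM in WT, from 6 and 9 counts, at 3.3 and 2.93 CPM in mCdx2-OE, at 3.5 and 3.89 CPM in rCdx2-OE, and at 0.131 to 0.704 CPM (median 0.289) in the mutants. All mutant libraries thus lay above both WT libraries and below all 4 libraries of unmutated Cdx2. The share of all genes with this order was not computed. In the mutants Zfp352 had only 2 to 10 counts per library, so its order against WT is uncertain for the lowest of them. Its log2 fold change with unmutated Cdx2 was 5.09 ± 0.29 (adjusted p = 1.4e-10), from a gene that was tested only because of its level in these 4 libraries.

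The Tcstv genes, short genes specific to the 2-cell stage and to this state of ESCs, had few counts. Tcstv1 was at 0.368 and 0.16 CPM in WT, at 1.3 CPM in both libraries of mCdx2-OE, at 1.88 and 1.17 CPM in rCdx2-OE, and at 0 to 0.619 CPM (median 0.223) in the mutants. Tcstv3 was at 0.227 and 0.217 CPM in WT, at 0.46 and 1.04 CPM in mCdx2-OE, at 0.923 and 1.03 CPM in rCdx2-OE, and at 0 to 0.481 CPM (median 0.131) in the mutants, where 5 of 14 libraries had no count. Tcstv3 was the 1 member whose unmutated and mutant libraries overlapped. The log2 fold changes with unmutated Cdx2 were 2.45 ± 0.46 for Tcstv1 (adjusted p = 1.5e-04) and 1.88 ± 0.57 for Tcstv3 (adjusted p = 0.00686), and without WT replicate 2 the adjusted p of Tcstv3 became 0.0543 at a log2 fold change of 1.84.

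Of the deubiquitinase genes, Usp17lc was at 0.709 and 0.594 CPM in WT, at 3.51 and 4.23 CPM in mCdx2-OE, at 3.85 and 4.11 CPM in rCdx2-OE, and at 0.47 to 1.19 CPM (median 0.829) in the mutants. Usp17le was at 1.45 and 1.53 CPM in WT, at 5.31 and 6.05 CPM in mCdx2-OE, at 5.27 and 5.79 CPM in rCdx2-OE, and at 1.16 to 2.12 CPM (median 1.57) in the mutants. For both genes the mutant libraries fell on both sides of WT. Their log2 fold changes with unmutated Cdx2 were 2.58 ± 0.26 and 1.90 ± 0.17, and that of their sum was 2.15 ± 0.15 (adjusted p = 1.4e-09).

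Mouse and rat Cdx2 gave like levels of the members. In mCdx2-OE against rCdx2-OE, 0 of 8 members passed the test, where 3 of 16000 genes (0.0188%) did. Differences ran from -0.44 ± 0.67 on the log2 scale for Tcstv3 to 0.24 ± 0.13 for Zscan4d, at adjusted p = 1 for every member, and no unadjusted p was under 0.05, the lowest being 0.0863 for Zscan4d. DESeq2 also called 0 of 8. The sums differed by 0.09 ± 0.19 for Zscan4, -0.33 ± 0.37 for Tcstv and 0.01 ± 0.16 for Usp17l.

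With the 7 mutants fewer members passed the test against WT. Each mutant had at most 1 member that rose against WT, beside 10.1% of all genes in rCdx2_R1-OE, 10.6% in rCdx2_R2-OE and rCdx2_R12-OE, 12.2% in rCdx2_R3-OE, 13.6% in rCdx2_R13-OE, 13.8% in rCdx2_R23-OE and 14% in rCdx2_R123-OE. The member was Zfp352 in rCdx2_R1-OE (log2 fold change 2.56, adjusted p = 4.7e-05), rCdx2_R2-OE (2.10, adjusted p = 7.4e-04), rCdx2_R3-OE (1.92, adjusted p = 0.00146) and rCdx2_R13-OE (1.41, adjusted p = 0.0365), and Zscan4f in rCdx2_R23-OE (1.04, adjusted p = 0.024) and rCdx2_R123-OE (1.34, adjusted p = 0.00497). No member fell in any mutant, and rCdx2_R12-OE had none that passed. The Zscan4 sum was at 18.2 and 16.2 CPM in rCdx2_R23-OE and at 17.7 and 17.9 CPM in rCdx2_R123-OE, above both WT libraries, at 8.48 and 11.7 CPM. Its log2 fold changes of 0.76 ± 0.21 (adjusted p = 0.00392) and 0.82 ± 0.21 (adjusted p = 0.00248) lay under the fold threshold, and in the other 5 mutants they were 0.14 to 0.49. The Usp17l sum was at -0.09 to 0.44 and the Tcstv sum at -1.02 to 0.37 over the 7 mutants. Several of these calls turned on 1 library: without WT replicate 1 no member passed in rCdx2_R13-OE or rCdx2_R23-OE, and none passed without either library of rCdx2_R13-OE, without replicate 2 of rCdx2_R2-OE or without replicate 1 of rCdx2_R23-OE. Without WT replicate 2 the counts rose to 3 members in rCdx2_R3-OE and 2 each in rCdx2_R23-OE and rCdx2_R123-OE, and without replicate 1 of rCdx2_R123-OE to 2 there.

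**Figure D2:**
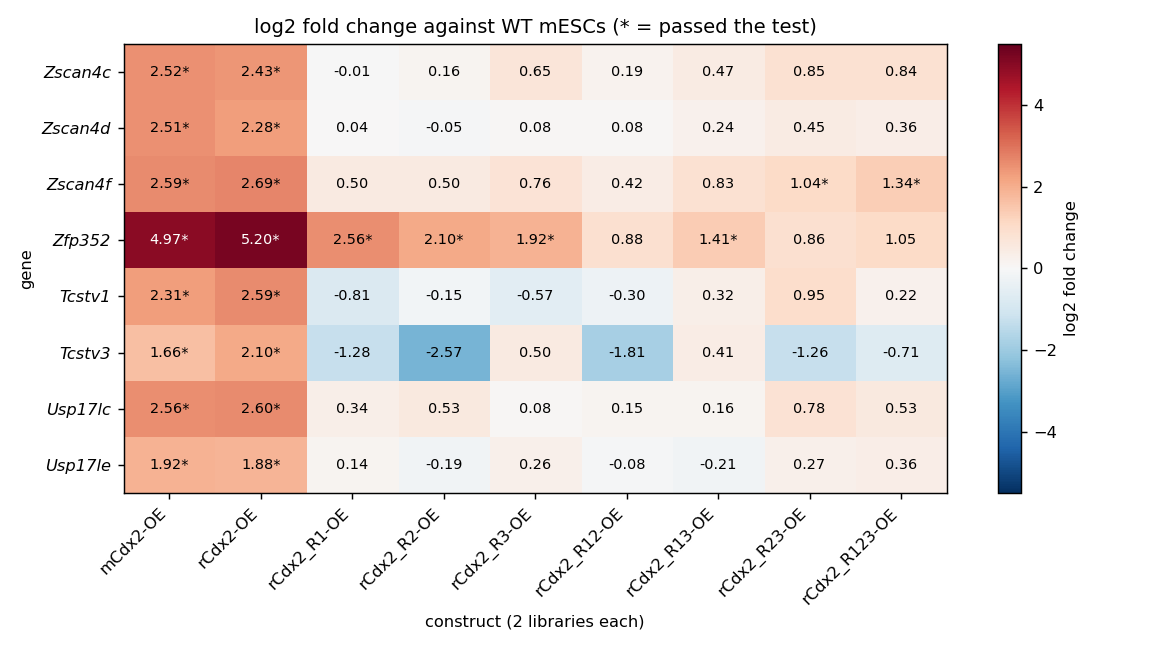
Log2 fold change against WT mESCs (colour and printed value) of the 8 members (rows) for each of the 9 constructs (columns, 2 libraries each), with a star where the member passed the test. Both left columns are red throughout, from 1.66 to 5.20, while in the mutant columns 6 of 56 cells carry a star and the values of Tcstv3 rest on at most 7 counts per library.

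With the 7 mutants pooled, a comparison also added after the values were seen, only Zfp352 rose against WT (log2 fold change 1.54 ± 0.31, adjusted p = 3.0e-04), where 12.3% of all genes rose. Zscan4c (0.45 ± 0.17, adjusted p = 0.027) and Zscan4f (0.77 ± 0.28, adjusted p = 0.0191) stayed under the fold threshold, and without WT replicate 2 Zscan4f passed it (1.25, adjusted p = 0.00844). The remaining 5 members ranged from -0.96 ± 0.61 for Tcstv3 to 0.37 ± 0.24 for Usp17lc.

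Set directly against mCdx2-OE and rCdx2-OE, the mutants had lower levels of all 8 members, where 33.4% of all genes were lower (edgeR, adjusted p under 0.05, no fold threshold). The log2 differences were -2.02 ± 0.12 for Zscan4c, -2.22 ± 0.08 for Zscan4d, -1.87 ± 0.19 for Zscan4f, -3.54 ± 0.17 for Zfp352, -2.50 ± 0.34 for Tcstv1, -2.84 ± 0.51 for Tcstv3, -2.21 ± 0.17 for Usp17lc and -1.82 ± 0.12 for Usp17le, with adjusted p from 3.9e-13 for Zscan4d to 1.4e-04 for Tcstv3. For 7 of 8 members the lowest library of unmutated Cdx2 lay above the highest mutant library, as it did for 17.2% of all genes. Zfp352 and Tcstv3 passed the filter on low counts only through the libraries of unmutated Cdx2. A lower level in the mutants was thus a condition of their test. The other 6 members were lower as well, without overlap. The 9 trophoblast markers moved the same way, 6 of 8 tested being lower in the mutants. Among them Cdx2 was at -0.26 ± 0.27 (adjusted p = 0.422), which does not show equal levels of the transgenes.

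The mutant with all 3 changes did not reach the level of mouse Cdx2. In rCdx2_R123-OE against mCdx2-OE, 7 of 8 members were lower, where 22.3% of all genes were, with a log2 difference of -1.73 ± 0.21 for the Zscan4 sum (adjusted p = 7.1e-06), -3.92 ± 0.38 for Zfp352 (adjusted p = 6.4e-07) and -1.74 ± 0.19 for the Usp17l sum (adjusted p = 2.0e-06). Tcstv3 differed by -2.37 ± 1.01 (adjusted p = 0.0705). Zfp352 and Tcstv3 were tested only because of their level with unmutated Cdx2. The count fell to 5 members without mCdx2-OE replicate 2 and to 6 without any of the other 3 libraries.

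All 9 constructs taken jointly differed for 8 of 8 members, where 56.9% of genes did, and the 7 mutants among themselves for 0 of 8, where 22.5% of genes did. The first count includes Zfp352 and Tcstv3, which passed the filter only through unmutated Cdx2. Among the mutants the unadjusted p was under 0.05 for 2 members, Zfp352 and Zscan4c, and DESeq2 called 1. In a model that adds the effects of the changes, over the 16 libraries of rat Cdx2 and its mutants, change 1 and change 2 were called for 0 of 8 members and for 0% of 15114 genes by edgeR and DESeq2 called 0 members for either. The unadjusted p was under 0.05 for 3 members for change 1 and for 2 for change 2. Change 3 was called for Zfp352 alone (-1.87 ± 0.41, adjusted p = 0.00189), where 36.6% of genes were called. Zfp352 did not pass the filter on WT and mutant libraries alone. The effects did not add: 7 of 8 members passed a joint test of the interaction terms, where 28.9% of genes passed. These 7 include Zfp352, for which a high level with unmutated Cdx2 was a condition of the test. Whether others passed the filter in these 16 libraries only through rCdx2-OE was not checked. The means of the Zscan4 sum show this plainly, with 55.5 CPM in rCdx2-OE against 11.1 to 14.1 CPM with 1 change, 11.7 to 17.2 CPM with 2 changes and 17.8 CPM with all 3. An additive fit misses this pattern, so its 0 calls for changes 1 and 2 do not show that either had no effect.

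Averaged over all 9 constructs against WT, 2 of 8 members rose, Zfp352 (2.33 ± 0.29) and Zscan4f (1.19 ± 0.27), where 13.2% of genes rose. Without WT replicate 1 the count was 1, with Zscan4f at 0.84, and without WT replicate 2 it was 3, with Zscan4c at 1.31. This average mixes both kinds of construct described above.

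Other genes of the state followed the members. Of 40 further genes listed for it, 32 had a row, 26 were tested, and 20 rose and 0 fell with unmutated Cdx2 (median log2 fold change 2.15, beside -0.03 over all genes), where 19% of genes rose and 15.6% fell. The largest rises were those of AA792892 (3.87 ± 0.32), Usp17ld (3.61 ± 0.36), Spz1 (3.50 ± 0.57), Tmem92 (3.34 ± 0.20) and Arg2, a mitochondrial arginase (3.12 ± 0.32). With the mutants 3 rose, AA792892 (1.71 ± 0.31), Usp17ld (1.58 ± 0.35) and Ubtfl1 (1.17 ± 0.37), and 1 fell, Gm21761 (-1.01 ± 0.43), where 12.3% of genes rose and 13.9% fell. In the mutants against unmutated Cdx2, 24 of 26 were lower and 1 was higher, where 33.4% and 30.6% of genes were. The 32 genes summed to 35 to 39 CPM in WT, 103 to 122 CPM with unmutated Cdx2 and 29.6 to 41.1 CPM with the mutants. Many of these genes are paralogues of the members or of each other, such as Zscan4b, Zscan4e and Usp17la, and share reads with them. Whether genes of this list passed the filter on low counts only through the libraries of unmutated Cdx2 was not checked. Their counts are therefore not shown to be independent of that group.

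**Figure D3:**
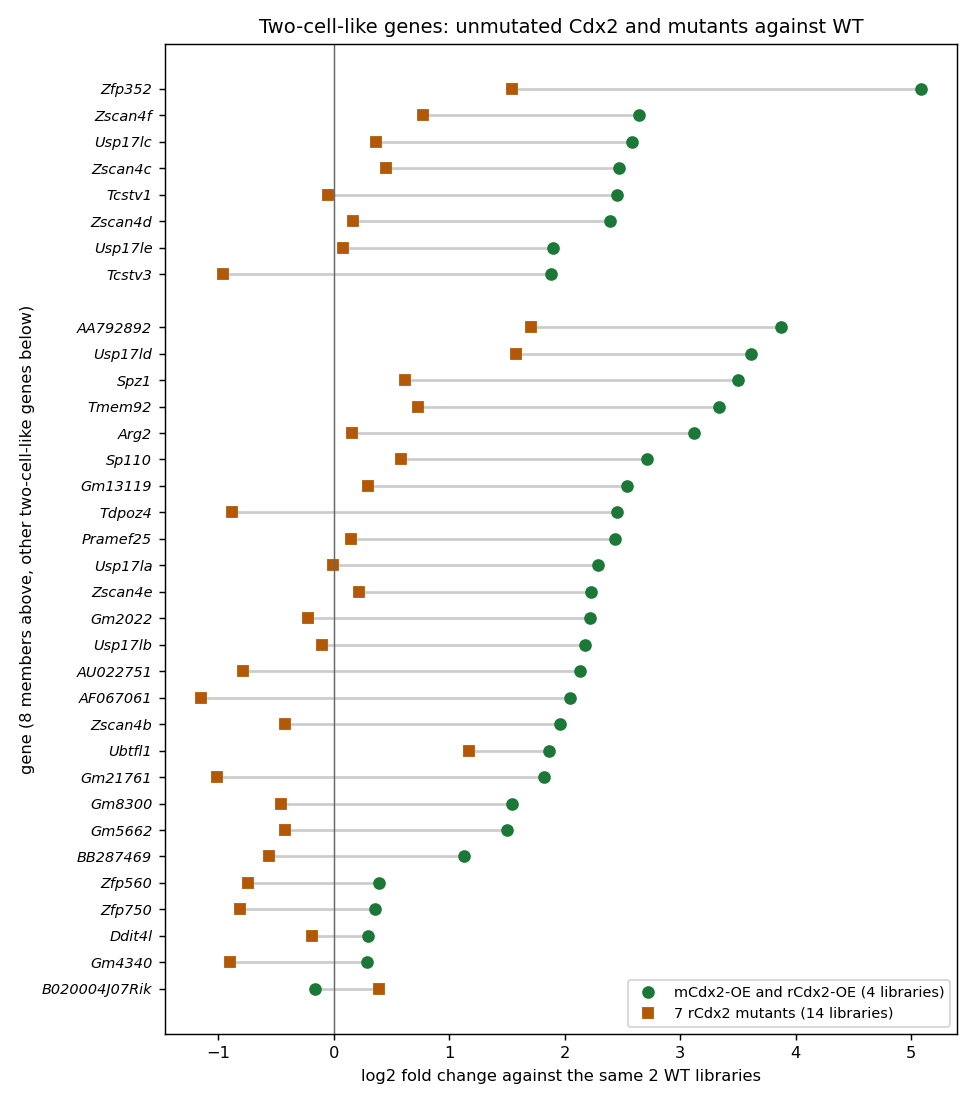
Log2 fold change (x axis) of the 8 members and of 26 other 2-cell-like genes (y axis) for unmutated Cdx2 (green circles) and for the 7 mutants (orange squares), both against the same 2 WT libraries, which the comparisons therefore share. Among the members the circles lie at 1.88 to 5.09 and the squares at -0.96 to 1.54.

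Of 6 tested genes known to switch the state on, 1 rose and 1 fell with unmutated Cdx2, where 19% of all genes rose and 15.6% fell. Duxf3, the row that holds a Dux copy, was at 0.283 and 0.148 CPM in WT, at 0.836 and 0.715 CPM in mCdx2-OE, at 0.615 and 0.0733 CPM in rCdx2-OE, and at 0 to 0.297 CPM in the mutants, and 1 library of rCdx2-OE, with 1 count, lay below both WT libraries. It rose in mCdx2-OE (1.86 ± 0.59, adjusted p = 0.00988) and was at 0.93 ± 0.66 in rCdx2-OE (adjusted p = 0.218). Both pooled gave 1.39 ± 0.52 (adjusted p = 0.0242), and it was lower in the mutants than in those (-1.98 ± 0.46, adjusted p = 0.00138). At these levels Duxf3 passed the filter on low counts only through libraries of unmutated Cdx2. A higher level there was thus a condition of its tests. Dppa4 fell with unmutated Cdx2 (-1.83 ± 0.07) and with the mutants (-1.47 ± 0.05), and its partner Dppa2 was at 0.04 ± 0.11 with unmutated Cdx2. Of 17 repressors of the state, 3 fell with unmutated Cdx2, where 15.6% of all genes fell: the RNA-binding protein Lin28a (-2.25 ± 0.07), the Polycomb component Pcgf6 (-1.19 ± 0.05) and Trim28 (-1.15 ± 0.09). Lin28a also fell with the mutants (-2.60 ± 0.05), where Trim28 was at -0.94 ± 0.08 and Pcgf6 at -0.81 ± 0.04, both under the fold threshold.

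The genes outside these lists whose levels were most like the Zscan4 sum over the 20 mESC libraries were Nfix (Pearson r = 0.977), Kif1b (0.974), Rtn4rl1 (0.972), Sord (0.971) and Gm364 (0.969). Over the 18 induced libraries alone they were Lrrc8c, Cpd and Dmxl2 (0.986 each), Fndc3b (0.979) and Nup62cl (0.978). These libraries fall into 2 clusters, the 4 of unmutated Cdx2 and the rest, and the correlations on log2 CPM mainly describe that split. The other members had an r of 0.815 for Tcstv3 to 0.944 for Usp17le with the Zscan4 sum over the 20 libraries.

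In RMES cells Cdx2 on the mouse allele was at 129 and 127 CPM in WT, at 968 CPM in mCdx2-OE and at 4.45 CPM in rCdx2-OE, below WT. On the rat allele it was at 453 and 440 CPM in WT, 47.2 CPM in mCdx2-OE and 880 CPM in rCdx2-OE. Each induced library was thus above WT on the allele of its own transgene and below WT on the other, and WT RMES cells held Cdx2 RNA from both alleles, unlike WT mESCs at 1.21 and 1.36 CPM.

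In RMES cells, whose table was counted apart from those of mESCs, the members rose as well. On the mouse allele, 5 of 8 members passed the filter on low counts, and all 5 rose in the 2 induced libraries against the 2 WT libraries, where 28.3% of 16887 genes rose. No WT library held more than 8 counts of any of these 5, so they passed the filter through the induced libraries. As in the study, the library of mCdx2-OE and that of rCdx2-OE stood as replicates. Without the library of rCdx2-OE 5 members were called in RMES cells, and without that of mCdx2-OE 6. The sum of the 8 members was at 0.555 and 0.92 CPM in WT, 7.1 CPM in mCdx2-OE and 4.97 CPM in rCdx2-OE.

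Zscan4d was at 0 and 0.0558 CPM in WT, at 1.62 CPM in mCdx2-OE and at 0.67 CPM in rCdx2-OE. With only 2 counts in WT against 96 in the induced libraries, the ratio of 39.1 had an exact 95% interval for counting error of 10.5 to 328. Zscan4c was at 0.0925 and 0.139 CPM in WT and at 0.906 and 0.526 CPM in mCdx2-OE and rCdx2-OE, and Zscan4f at 0 and 0.112 CPM and at 0.691 and 0.598 CPM. For each of these genes both induced libraries lay above both WT libraries. The share of all genes with that order was not computed, and these genes passed the filter through the induced libraries. The Zscan4 sum rose by 3.60 ± 0.46 on the log2 scale (adjusted p = 1.1e-05).

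Usp17lc was at 0.0617 and 0.139 CPM in WT, at 1.36 CPM in mCdx2-OE and at 1.15 CPM in rCdx2-OE. Usp17le was at 0.216 and 0.223 CPM in WT, at 1.86 CPM in mCdx2-OE and at 1.2 CPM in rCdx2-OE. Their log2 fold changes were 3.57 ± 0.47 and 2.78 ± 0.41 (adjusted p = 1.4e-05 and 3.5e-05). Of the 3 members that were not tested, Zfp352 had 1 count in WT and 19 in the induced libraries (ratio 15.5, exact interval 2.46 to 643), Tcstv3 had 8 and 29 (ratio 2.95, interval 1.32 to 7.48) and Tcstv1 6 and 15 (ratio 2.04, interval 0.747 to 6.41). For Tcstv1 the library of rCdx2-OE, at 0.0957 CPM, lay between both WT libraries.

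**Figure D4:**
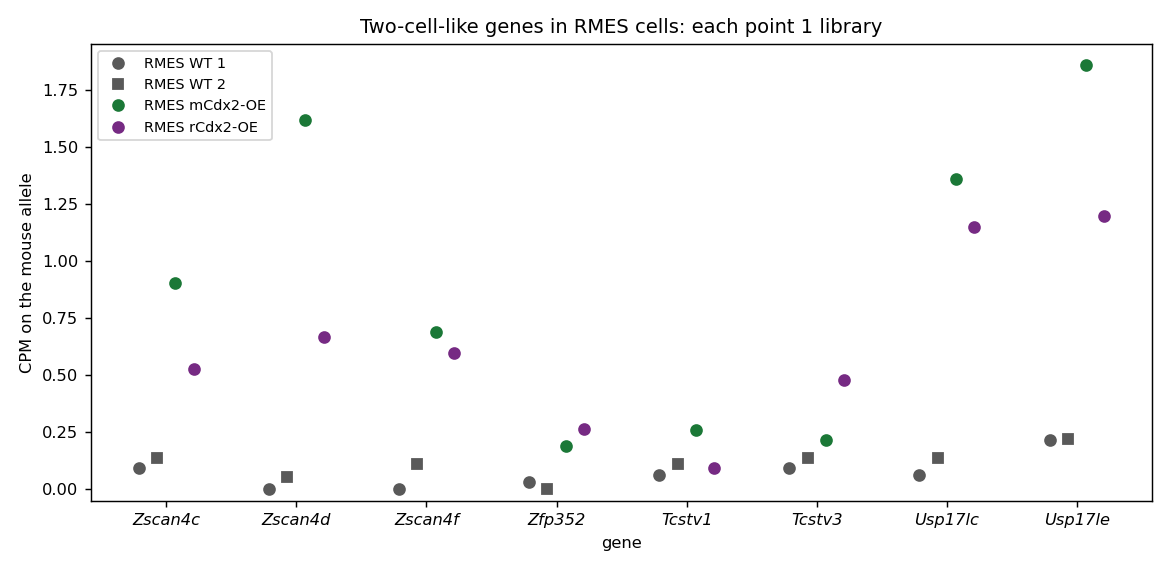
Levels in CPM on the mouse allele (y axis) of the 8 members (x axis) in the 4 RMES libraries, 2 of WT (grey), 1 of mCdx2-OE (green) and 1 of rCdx2-OE (purple); each point is 1 library. Zscan4d, Usp17lc and Usp17le reached 1.62, 1.36 and 1.86 CPM in mCdx2-OE, and the WT points stayed at or below 0.223 CPM.

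The feeder markers were also lower in the induced RMES libraries, at 7.87 to 10.8 CPM in sum against 22.4 to 27.2 CPM in WT, and the trophoblast markers higher, at 1030 to 1860 CPM against 299 to 311 CPM. Their part was not tested. The trophoblast sum includes Cdx2 itself, at 129 and 127 CPM in WT, 968 CPM in mCdx2-OE and 4.45 CPM in rCdx2-OE. Of the further genes of the state, 39 had a row and 18 were tested. On the mouse allele 13 of the 18 rose and 2 fell, where 28.3% of all genes rose and 16.1% fell. At the top were AU022751 (4.53 ± 0.15), Usp17ld (3.98 ± 0.66), Sp110 (3.57 ± 0.39), Arg2 (3.54 ± 0.35) and Usp17la (3.38 ± 0.50). Obox6 (-2.33 ± 0.11) and Ddit4l (-1.79 ± 0.17) fell. Whether the rising genes passed the filter on low counts only through the induced libraries was not checked. Of the genes that switch the state on, 0 of 5 tested rose and 4 fell, Dppa4 (-2.17 ± 0.05), Dppa2 (-1.17 ± 0.07), Trp53 (-1.04 ± 0.06) and Tbx3 (-1.03 ± 0.06), and Duxf3 was not tested, with 0 to 3 counts per library. Of 17 repressors 5 fell, and of 6 ESC markers 4 fell, Pou5f1 by the most (-2.31 ± 0.06). The rat allele table holds rows named Zscan4f, with 3, 9, 16 and 17 counts in the libraries of WT, WT, mCdx2-OE and rCdx2-OE, and Zfp352, with 0 or 1 count in each, and reads shared with the mouse genes cannot be told apart there.

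The responses of RMES cells and mESCs to unmutated Cdx2 were compared in 1 fit. Of 8 members, 1 responded differently, where 56.4% of 16778 genes did: Zscan4d, by 2.66 ± 0.79 more on the log2 scale in RMES cells (adjusted p = 0.00771), which without RMES WT replicate 1 became 1.82 (adjusted p = 0.0903). Without the library of rCdx2-OE in RMES cells 2 members passed, Usp17le being the other (1.13, adjusted p = 0.0181). The Usp17l sum differed by 0.92 ± 0.32 (adjusted p = 0.0191) and the Zscan4 sum by 1.07 ± 0.57 (adjusted p = 0.116). The response set against that of mESCs used the same WT mESC libraries as the comparisons above.

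Within 10 kb of the gene, peaks of Cdx2 ChIP-seq in mESCs were found at 2 of 8 members, where 64.9% of 19563 genes with a position had one. At Usp17lc the peak at chr7:103406266-103406886 held 143 reads with mouse and 95 with rat Cdx2, and at Usp17le the peaks at chr7:104780005-104780316 and chr7:104784630-104785055 held 24 and 34, and 86 and 70. No Cdx2 peak lay within 50 kb of a Zscan4 or Tcstv gene, and 4 lay within 50 kb of Zfp352, the nearest 10498 bases away. In RMES cells the same 2 members had a Cdx2 peak on the mouse genome, beside 54.9% of genes.

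ATAC-seq, done once on WT and once on mCdx2-OE mESCs, had peaks within 10 kb of 3 of 8 members, beside 96.3% of genes. The peak near Zscan4d, at chr7:11158003-11158399, held 9 reads in WT and 28 in mCdx2-OE, a log2 ratio of 1.13 after scaling to the mean total, where 16% of all 122350 peaks rose by more than 2-fold. Its scaled reads, 10.6 and 24.3, sum to less than 40, the least that the study asked of a differential peak, and of the 3 only the peak near Tcstv1 reached that sum. Those near Tcstv1 and Tcstv3 held 30 and 45, and 18 and 15 reads (log2 ratios 0.14 and -0.66). These ratios have no replicate check. The authors removed reads of low mapping quality, so a locus in several near-identical copies can lack peaks for that reason, and an absence of peaks at the Zscan4 genes says nothing on binding there. The ChIP-seq columns carry abbreviations, and their assignment to mouse and rat Cdx2 was inferred from those.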

How the data were processed

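RNA-seq was made from mESCs and RMES cells, ATAC-seq from mESCs, and Cdx2 ChIP-seq from both. The authors trimmed ChIP-seq reads with cutadapt 2.6 and ATAC-seq reads with fastp, aligned RNA reads with STAR 2.7.0d and DNA reads with Bowtie2 2.3.4.3 (versions per the submitters' processing notes), and deposited raw read counts per gene or per peak on mm10 (GRCm38). The mESC counts came as a table for each replicate. By its file header the second table was counted with featureCounts restricted to properly paired reads, and it lists 12 alignments for 10 columns. Reads that map to several places are not counted by default. ChIP-seq columns were assigned from their abbreviations, which is an inference, and 0 per-sample columns lacked a sample.

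Counts were filtered (filterByExpr), scaled by TMM and tested with edgeR 4.0.16 in R 4.3.3 (quasi-likelihood test, Benjamini-Hochberg over all genes tested). All 20 mESC libraries shared a fit, so the 9 contrasts with WT share the same 2 WT libraries. Contrasts with WT were called at an adjusted p under 0.05 and over 2-fold, the others without a fold threshold. Peaks were compared after bringing both libraries to their mean depth, with 1 added before log2. Intervals of count ratios are exact, at 95%, and cover counting error only. Motifs and shared stretches were searched with Python 3.11.15 and Biopython 1.88. The scripts were tested on simulated data. Alternatives were DESeq2 1.42.0, its size factors, other filters on low counts, no fold threshold, a replicate block, each library left out, families summed, and other peak windows.

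All members are named, with the listed genes of the largest changes and the 5 genes most like the Zscan4 sum. The members and lists were chosen with earlier results of these data known. The rat genome ChIP-seq table was not used here.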

Additional observations from a re-analysis of the deposited data

Results flagged for a closer look

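The response of Zscan4d to unmutated Cdx2 differed between RMES cells and mESCs, by 2.66 ± 0.79 on the log2 scale in a test of the difference itself (edgeR, adjusted p = 0.00771), being larger in RMES cells. The WT libraries of RMES cells held 0 and 2 counts of it. With each library left out in turn the difference ran from 1.82 to 5.42, and without RMES WT replicate 1, at 1.82, it no longer passed the test (adjusted p = 0.0903). The response of the Usp17l sum also differed, by 0.92 ± 0.32 (adjusted p = 0.0191), and was again larger in RMES cells. Either direction was called for 56.4% of all genes in this comparison.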

How the results depend on the processing

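No called result turned its direction under any alternative run. With each family summed to 1 feature, which leaves 4 features in place of 8 members, 4 were called in mCdx2-OE and in rCdx2-OE against WT, with both pooled, among the 9 constructs, in the mutants against unmutated Cdx2, in rCdx2_R123-OE against mCdx2-OE and for the non-additive effects, 3 in RMES cells, 1 for the average of all constructs, and 0 in rCdx2_R23-OE and rCdx2_R123-OE. DESeq2 called 0 in rCdx2_R13-OE and 1 among the 7 mutants. Without a fold threshold 6 members were called for the average of all constructs, 2 in rCdx2_R3-OE and 3 each in rCdx2_R23-OE, rCdx2_R123-OE and the pooled mutants. A filter of at least 1 CPM in 2 libraries left 2 in RMES cells, since fewer members were tested, and peaks of at least 40 scaled reads left 1 member with an ATAC-seq peak, Tcstv1, without those of Zscan4d and Tcstv3. Leaving out each library in turn gave 1 to 3 members for the average of all constructs, 7 to 8 in mCdx2-OE, in rCdx2-OE and with both pooled, 1 to 2 in the pooled mutants and in rCdx2_R123-OE, 0 to 1 in rCdx2_R2-OE and rCdx2_R13-OE, 0 to 2 in rCdx2_R23-OE, 1 to 3 in rCdx2_R3-OE, 5 to 6 in rCdx2_R123-OE against mCdx2-OE and in RMES cells, and 0 to 2 for the response in RMES cells against mESCs. This was not run for the non-additive effects.

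Same-numbered libraries did not deviate together in every pair of conditions, with correlations of -0.162 to 0.57 (median -0.0174) over 45 pairs and 22 of them over 0.1, so the numbers were not taken to pair the samples. With the replicate block, all 8 members were still called in the mutants against unmutated Cdx2 and 2 for the average of all constructs, and it changed no other call. The low counts of Tcstv1, Tcstv3 and, outside unmutated Cdx2, Zfp352 limit what could be detected for them.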
